A study of Homo sapiens with 36 samples.

Results

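The 9 genes described here are targets, transcription factors and co-activators of the YAP-TEAD pathway: CCN1, CCN2, ANKRD1, AMOTL2, AJUBA, LATS2, TEAD1, YAP1 and WWTR1. They were chosen by name, 9 of 20033 protein-coding genes of GENCODE on chromosomes 1 to 22, X and Y, and every one was found. Peaks within 3 kb of any annotated start site of a gene were taken as its promoter peaks, and peaks of the Jun-family proteins JunB, Jun and JunD were taken within 100 kb of a start site. Chromatin immunoprecipitation followed by sequencing (ChIP-seq) had been carried out in A549, a human lung adenocarcinoma cell line, and in B2B (BEAS-2B), a line of non-cancerous human bronchial epithelium immortalised with SV40 genes. There are 36 samples, 2 replicates for each of 18 groups: polII, H3K4me3, Med1, H3K27ac, JunB, Jun and JunD in both lines, CTCF and Rad21 in B2B, and 4 input samples in 2 groups. Each line is a single established line, and no drug, time point or genetic change separates the groups used here. The authors merged the 2 replicates of each group before calling peaks, so that each of the 16 lists is 1 measurement without replicate error, and the lines are compared below without a test.

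In the Hippo pathway, a kinase cascade that ends in LATS1 and LATS2 phosphorylates the co-activators YAP (YAP1) and TAZ (WWTR1) and keeps them out of the nucleus. When the cascade is quiet, they enter the nucleus and bind DNA through the TEAD factors, which read the core GGAATG. AP-1 factors, dimers of Jun and Fos proteins that read TGAGTCA or TGACTCA, are known to share many enhancers with TEAD. CCN1 and CCN2 encode secreted matrix-associated proteins and ANKRD1 an ankyrin-repeat protein, and these are classic readouts of YAP activity. AMOTL2, AJUBA and LATS2 act within the pathway, AMOTL2 and LATS2 as restraints on YAP.

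The genes differ in size and in the number of annotated start sites, and this sets how much sequence was searched (hg38). CCN1 lies at chr1:85580761-85584589 on the plus strand with 6 start sites, CCN2 at chr6:131948176-131951372 on the minus strand with 1, and ANKRD1 at chr10:90912096-90921087 on the minus strand with 1. AMOTL2 lies at chr3:134355347-134375479 on the minus strand with 12 start sites, AJUBA at chr14:22971177-22982551 on the minus strand with 7, and LATS2 at chr13:20973036-21061586 on the minus strand with 2. TEAD1 spans 270.3 kb at chr11:12674421-12944737 on the plus strand with 5 start sites, YAP1 spans 123 kb at chr11:102110447-102233424 on the plus strand with 7, and WWTR1 spans 219 kb at chr3:149517235-149736714 on the minus strand with 11. Of the 16 lists, the A549 list of H3K27ac held no peak past position 52851492 of chromosome 13, so that AJUBA has no value there. The other lists that stop early (Med1 in both lines on chromosome 15, polII in A549 on chromosome 20) reach past all 9 genes.

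Some sequences under Jun-family peaks near these genes are shown, picked because they hold both the AP-1 motif and the TEAD core. They cover 50 bases either side of a Jun summit, on the plus strand of hg38, with both motifs in capitals. For each gene the region with the highest summed fold enrichment was taken among those with both motifs within 50 bp of a Jun summit. ANKRD1, AJUBA, LATS2 and TEAD1 had no such region. Near the 9 genes, both motifs were held by 4 of the 52 regions with Jun-family peaks in both lines, 0 of 35 in A549 alone and 3 of 77 in B2B alone. The share over all Jun-family regions was not counted. The windows of 4 genes are shown. The CCN1 window, chr1:85607446-85607546, lies 26.6 kb downstream of the gene start between genes, with 8 bases between the motifs. The CCN2 window, chr6:131996086-131996186, lies 44.7 kb upstream in an intron of LINC01013, and there the TEAD core runs into the AP-1 motif and shares 2 bases with it. The YAP1 window, chr11:102011230-102011330, lies 99.2 kb upstream between genes with 22 bases between the motifs. Jun-family peaks lay in both lines at these 3 windows. The AMOTL2 window, chr3:134320925-134321025 in an exon of LINC02004, held a peak in B2B alone, with 56 bases between the motifs.
CCN1: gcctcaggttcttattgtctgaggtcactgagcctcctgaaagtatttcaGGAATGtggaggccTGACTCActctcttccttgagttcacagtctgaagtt
CCN2: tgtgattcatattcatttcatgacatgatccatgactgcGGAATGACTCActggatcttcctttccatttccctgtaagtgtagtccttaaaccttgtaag
YAP1: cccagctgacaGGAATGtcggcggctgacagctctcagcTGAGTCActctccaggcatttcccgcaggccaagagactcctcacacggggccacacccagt
AMOTL2: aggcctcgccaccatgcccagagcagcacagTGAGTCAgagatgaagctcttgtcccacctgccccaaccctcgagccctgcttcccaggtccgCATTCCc

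Sequences of 2 promoters are shown as well, chosen after the values were seen. The ANKRD1 window, chr10:90921301-90921401 on the plus strand, surrounds the B2B Jun summit 264 bases upstream of the gene start, one of the strongest Jun peaks of either line. It holds 1 TEAD core at its edge and neither spelling of the AP-1 motif. The CCN2 stretch, chr6:131951452-131951551 on the minus strand, covers bases 80 to 179 upstream of the start and holds 3 TEAD cores. The RefSeq table of promoters (250 bases before to 50 after a start) matched 7 of the 9 genes, all but CCN1 and TEAD1. On either strand, the TEAD core occurred in the promoters of CCN2 (3 times), ANKRD1 (2 times), YAP1, LATS2, AMOTL2 and AJUBA (once each, in 1 of the 2 entries for AMOTL2 and AJUBA), and in 14% of all 35116 entries. The AP-1 motif occurred in no entry of these 7 genes and in 4.95% of all entries.
ANKRD1 promoter: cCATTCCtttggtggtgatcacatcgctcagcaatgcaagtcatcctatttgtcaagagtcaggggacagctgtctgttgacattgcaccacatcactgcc
CCN2 promoter: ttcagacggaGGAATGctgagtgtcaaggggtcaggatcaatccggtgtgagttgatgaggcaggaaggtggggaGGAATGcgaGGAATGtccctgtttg

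To determine whether the 9 genes carried the marks of active transcription in both lines, promoter peaks were counted. In both A549 and B2B, all 9 had a peak of polII, of H3K4me3, a mark of active promoters, and of Med1, a subunit of the Mediator complex that links enhancer-bound factors to polII. All 8 genes within reach also had H3K27ac, a mark of active promoters and enhancers, in both. Over all protein-coding genes that both lists of a target cover, the share with a promoter peak in A549 and in B2B was 69.6% and 51.9% for polII, 73.7% and 62.7% for H3K4me3, 54.7% and 61.1% for Med1, and 73.5% and 64.3% for H3K27ac. In B2B, CTCF, the insulator factor, had a promoter peak at all 9 genes (50.1% of all genes), and Rad21, a cohesin subunit, at all but ANKRD1 (67.9% of all genes). In A549, ANKRD1 had the lowest polII fold enrichment of the 9 (9.07) and the lowest H3K27ac fold enrichment of the 8 within reach (6.99). In B2B its polII fold enrichment, 18.3, was the highest of the 9, and its H3K27ac fold enrichment was 7.37. The number of polII reads stacked at that B2B summit, 48, was the lowest of the 9, on a low local background.

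For WWTR1, no polII, H3K4me3 or Med1 peak lay within 3 kb of the annotated 5′ end in either line. Its strongest polII peak in A549, with a fold enrichment of 62.3, had its summit 78704 bp into the gene, 15 bp past another annotated start. In B2B, a polII peak lay at the same start with a pileup of 177 (205 in A549), and a second one 160524 bp into the gene reached 15.0.

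The fold enrichment of a peak is its pileup (the number of reads stacked at its summit) over the local background of the caller, and the fold enrichment and p-value of each peak were solved for both parts. For polII, H3K4me3 and H3K27ac, the pileups at these promoters differed far less between the lines than the fold enrichments did, except at ANKRD1. The ratio of A549 to B2B of the pileup, each divided by the lowest background of its list, ran from 0.768 to 1.29 for H3K4me3, from 0.759 to 1.33 for H3K27ac and from 0.451 (AJUBA) to 1.22 for polII, with ANKRD1 at 0.506 for polII. At CCN1, the highest polII pileup was 321 in A549 and 318 in B2B, but the fold enrichment of that peak was 121 and 6.64. The local background there was 1.00 times the lowest background of the A549 list and 28.1 times the lowest of the B2B list. At TEAD1, the H3K27ac pileup was 297 in A549 and 344 in B2B, with fold enrichments of 107 and 6.62. Divided by the lowest background of its list, the polII pileup was higher in A549 at 3 of 9 genes, against 83% of the 8972 genes with a peak in both. The median ratio of A549 to B2B was 0.877 against 1.33 over those 8972 genes. For H3K4me3 the divided pileup was higher in A549 at 6 of 9 genes (86% of all genes with a peak in both), with a median ratio of 1.01 against 1.22. For H3K27ac it was higher in A549 at 3 of 8 (85.6%), with 0.984 against 1.28. The median ratio of the fold enrichments was 13.6 for polII, 14.5 for H3K4me3 and 12.1 for H3K27ac, against 11.7, 11.0 and 9.99 over all genes with a peak in both. The exception was ANKRD1, where the background was at most 1.49 times the lowest in either line for the 3 targets, and the ratios of the fold enrichments of A549 to B2B were 0.495, 0.944 and 0.949. Duplicate reads had been removed before peaks were called, and the highest pileup in the lists of A549 and B2B was 332 and 319 for polII and 356 and 371 for H3K27ac. The polII pileups of CCN1 (321 and 318) and the H3K27ac pileup of LATS2 in B2B (364) lay close to these. In B2B the H3K27ac pileups of AMOTL2 (358) and TEAD1 (344) stood at percentiles 99.9 and 99.7 of their list. The polII pileup of AMOTL2 in B2B (306) stood at 99.8. Whether an upper limit on pileups makes such values look more alike than the occupancy is was not tested.

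**Figure D1:**
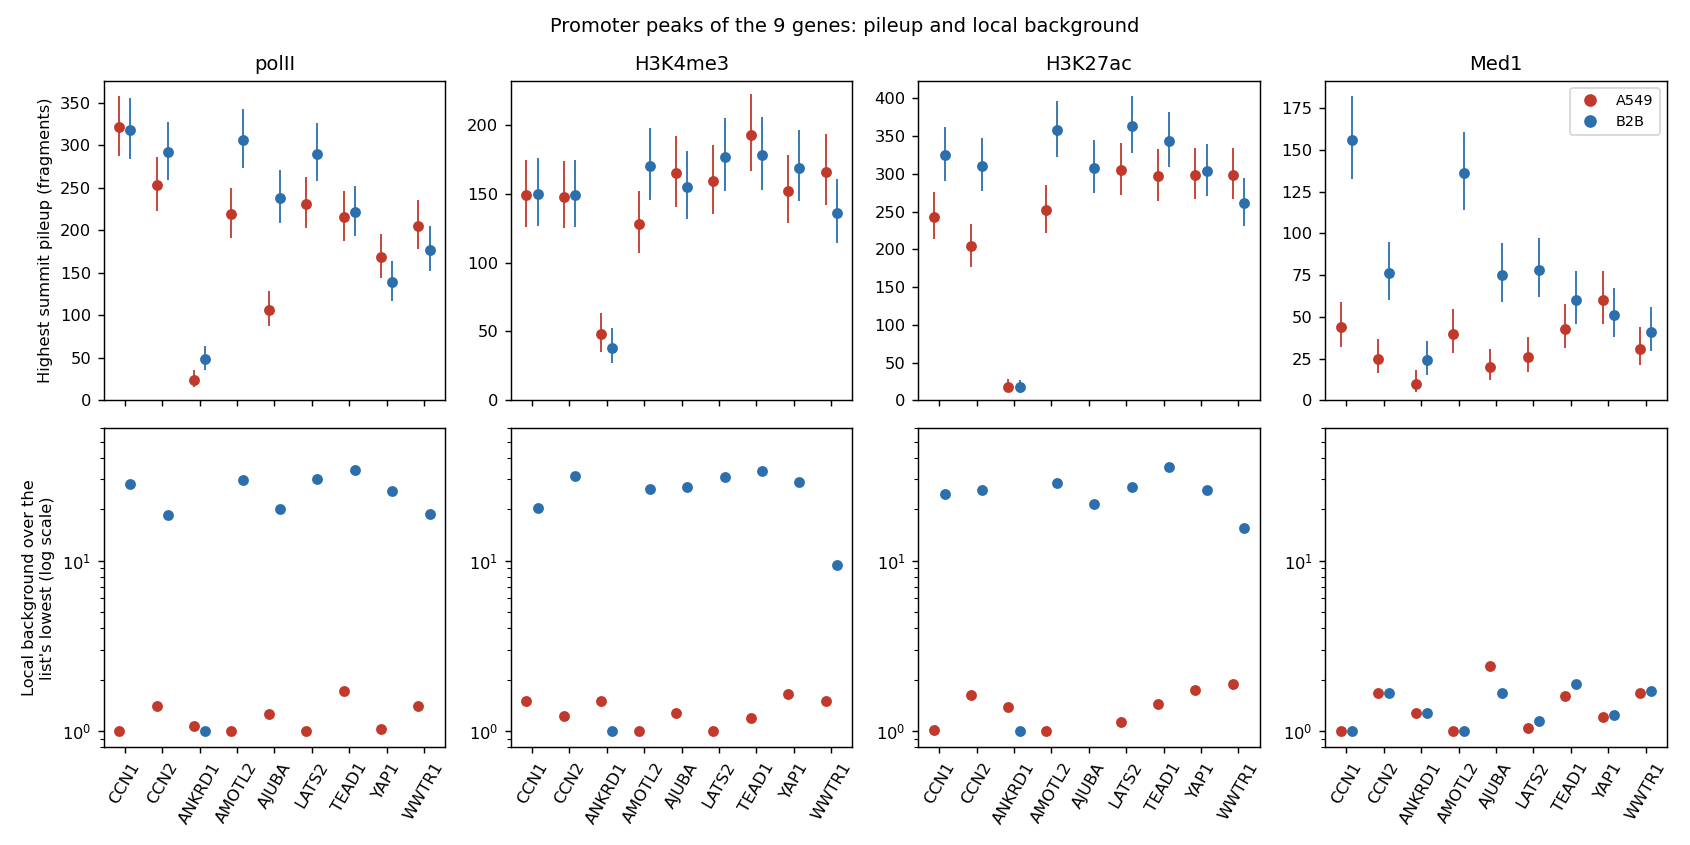
Highest summit pileup (upper row, reads, linear axis) and local background over the lowest background of the list (lower row, log axis) of the promoter peaks of the 9 genes in A549 (red) and B2B (blue), with 1 list per point and bars giving exact Poisson 95% intervals for counting error only. AJUBA has no A549 point for H3K27ac. Most pileups of polII, H3K4me3 and H3K27ac lie close together in both lines, with AJUBA (106 and 238) the widest apart for polII, and the backgrounds of B2B lie far above those of A549 at every gene but ANKRD1, whereas for Med1 the backgrounds are alike and the pileups of CCN1 (44 and 156) and AMOTL2 (40 and 136) are far apart.

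Med1 differed between the lines in the pileup itself. At CCN1 the highest Med1 pileup was 44 in A549 and 156 in B2B, at AMOTL2 it was 40 and 136, at CCN2 it was 25 and 76. At LATS2 it was 26 and 78, at AJUBA 20 and 75 (at different start sites), and at ANKRD1 10 and 24. In all these genes the B2B value was the higher. Over the exact Poisson 95% intervals of the 2 pileups, the lines did not overlap at CCN1 (32.0 to 59.1 against 132 to 182), AMOTL2, CCN2, LATS2 and AJUBA, and overlapped at ANKRD1 (4.80 to 18.4 against 15.4 to 35.7). These intervals cover counting error only, and the share of all genes whose intervals do not overlap was not counted. At the 3 genes that encode the DNA-binding factor and the co-activators, the values lay closer. TEAD1 had 43 and 60, WWTR1 31 and 41, and YAP1 60 and 51, the only gene of the 9 with the higher Med1 value in A549. The median Med1 background at these peaks was 1.27 times the lowest in both lines, and the lowest backgrounds were 1.24 in A549 and 1.31 in B2B.

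After division by the lowest background, the Med1 pileup was at least 2-fold higher in B2B at 6 of 9 genes. Among the 7020 protein-coding genes with a Med1 promoter peak in both lists, 4.05% were at least 2-fold higher in B2B, 5.61% were at least 2-fold higher in A549, and the median ratio of A549 to B2B was 1.04. By any margin, the divided pileup was higher in A549 at 53.7% of them and at 1 of the 9 genes. For the 9 genes the median ratio was 0.354, and the lowest was 0.283 at AJUBA. That ratio compares different start sites, chr14:22982601-22983027 in A549 and chr14:22977582-22978505 in B2B. At the other genes the 2 Med1 peaks overlapped. The AJUBA peaks strongest by fold enrichment overlapped too, with Med1 pileups of 16 in A549 and 71 in B2B. For polII, AJUBA (106 and 238) was the only one of the 9 with a value at least 2-fold higher in B2B, against 2.5% of all genes. In its own list, the strongest Med1 peak of CCN1 and of AMOTL2 ranked at percentiles 99.97 and 99.92 by fold enrichment in B2B (67.9 and 59.3). In A549 they ranked at 95.2 and 93.9 (20.1 and 18.3). CCN2 stood at 98.5 in B2B and 66.1 in A549, and AJUBA at 98.7 and 38.6.

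**Figure D2:**
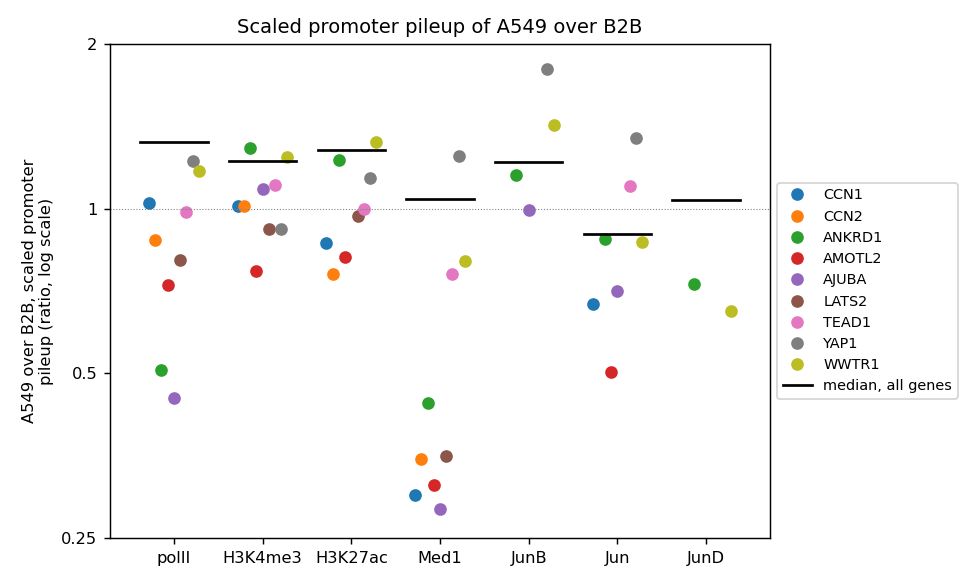
Ratio of A549 to B2B of the highest promoter pileup, each divided by the lowest background of its list (log axis), for each target and each of the 9 genes with a peak in both lists. Points are genes and black lines are the medians over all protein-coding genes with a peak in both lists. The 2 peaks of a gene may lie at different start sites, as for Med1 at AJUBA and JunB at YAP1 and WWTR1. Med1 is the target with most genes below 0.5, with 6 of 9, while its median over all genes is 1.04.

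Next, the Jun-family proteins were examined at the promoters. JunB had a promoter peak at 9 of the 9 genes in A549 and at 4 in B2B, against 31.1% and 5.28% of all protein-coding genes. Jun had one at 8 genes in each line, against 38.2% and 25.4%. JunD had one at 7 genes in A549 and 2 in B2B, against 17.8% and 3.21%. All 3 proteins together lay at 7 promoters in A549 and at 2 in B2B, ANKRD1 and WWTR1, against 13.7% and 2.61% of all genes. JunB lay at 4 promoters in both lines (4.32% of all genes), at 5 in A549 alone (26.7%) and at none in B2B alone (0.953%). Jun lay at 7 in both (18.9%), at LATS2 in A549 alone (19.3%) and at CCN2 in B2B alone (6.5%). JunD lay at 2 in both (1.64%), at 5 in A549 alone (16.2%) and at none in B2B alone (1.57%). Any of the 3 was found at 9 promoters in A549 and 8 in B2B, against 43.8% and 25.5%. The JunB list of A549 is the longer one (28068 peaks against 8563), and with both lists cut to equal length by p-value the counts of JunB were 5 and 4. For JunD, whose lists have 9639 and 8597 peaks, they were 5 and 2 at equal length.

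**Figure D3:**
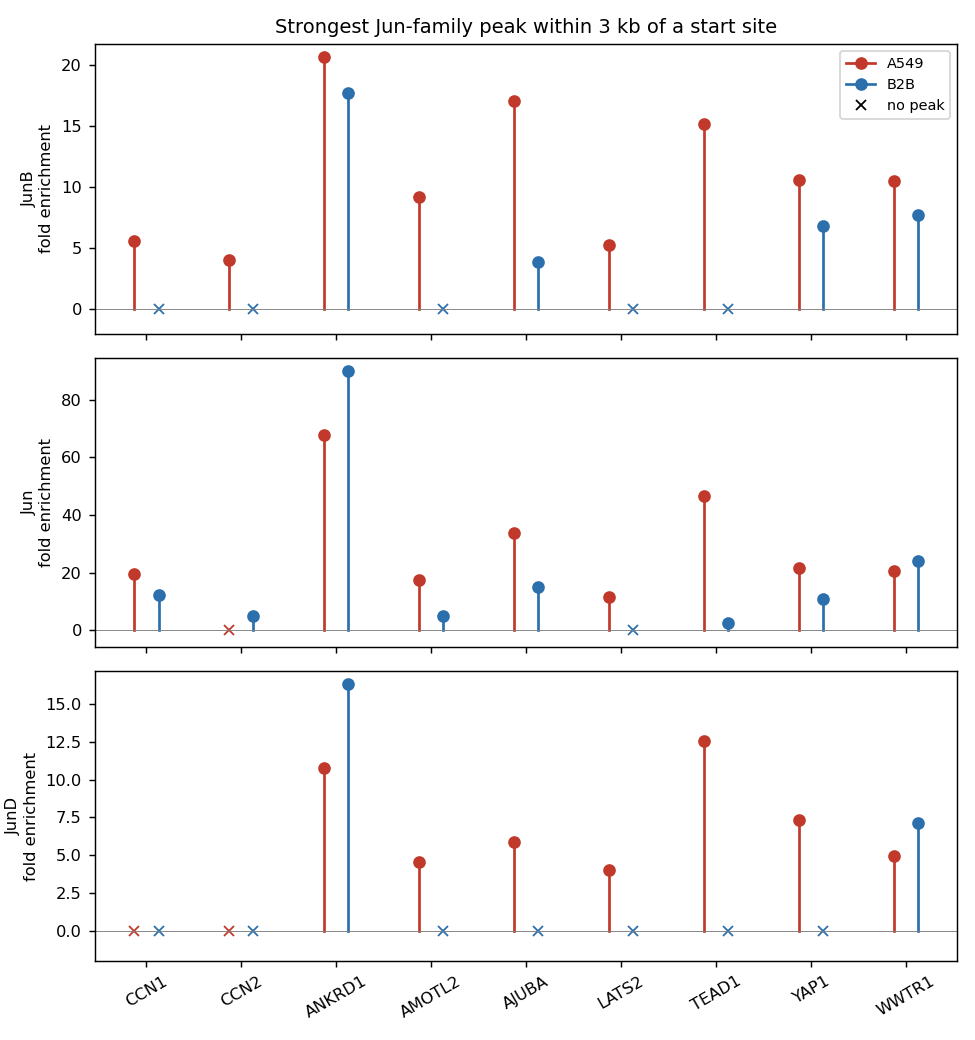
Fold enrichment (linear axis) of the strongest JunB, Jun and JunD peak within 3 kb of a start site of each gene, in A549 (red) and B2B (blue), with crosses where the list holds no peak. Each point is 1 list of merged replicates. ANKRD1 has the highest Jun values (67.7 and 90.1), and JunB and JunD have crosses mainly in B2B.

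Among the secreted targets, CCN1 had a JunB peak of fold enrichment 5.58 in A549 only. Its Jun peak at the start site had a fold enrichment of 19.6 in A549 and 2.36 in B2B, with pileups of 39 and 68 and backgrounds of 1.05 and 24.3 times the lowest. The strongest Jun peak near a CCN1 start in B2B, 12.1, had its summit 3650 bp past the gene start, towards the end of the gene. In A549, CCN2 had the lowest summed Jun-family fold enrichment of the 9 genes. It had JunB in A549 (4.03, summit 23 bp past the start) and Jun in B2B (4.94, 2912 bp upstream), and no JunD in either line.

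At ANKRD1, all 3 proteins peaked in both lines within 220 to 292 bp upstream of its single start. Jun had fold enrichments of 67.7 in A549 and 90.1 in B2B, JunB 20.7 and 17.7, and JunD 10.8 and 16.3. The Jun pileup was 146 and 194, on backgrounds of 1.18 and 1.00 times the lowest. The gene with the strongest Jun promoter peak of the 9 in both lines also had the lowest promoter pileups of polII, H3K4me3 and Med1, and of H3K27ac among the genes within reach.

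Among the genes that act on the Hippo kinases or YAP, AMOTL2 carried all 3 proteins in A549 (JunB 9.18, Jun 17.5, JunD 4.58) and Jun alone in B2B (4.91). The Jun pileup of AMOTL2 was 37 in A549 and 86 in B2B, on backgrounds of 1.18 and 14.3 times the lowest, so that the order of the pileups is the opposite of the order of the fold enrichments. AJUBA, a LIM-domain scaffold protein, had JunB at 17.0 and 3.84, Jun at 33.9 and 14.9, and JunD at 5.87 in A549 only. Its JunB pileups were 67 and 64, on backgrounds of 1.46 and 8.19 times the lowest. LATS2, the kinase that phosphorylates YAP, had all 3 in A549 (5.25, 11.4 and 4.06) within 47 bp of a start and none in B2B, the only one of the 9 without a Jun-family promoter peak in a line.

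TEAD1, the DNA-binding factor, had all 3 proteins in A549 (JunB 15.2, Jun 46.6, JunD 12.6) and Jun alone in B2B (2.65). The Jun fold enrichment ranked at the 97.5 percentile of its list in A549 and at 0.362 in B2B, but the pileups were 108 and 115. The background under the B2B peak was 36.8 times the lowest, against 1.35 in A549. YAP1 had all 3 in A549 (10.6, 21.6 and 7.30), between 285 and 344 bp upstream of an internal start. In B2B it had Jun there (6.27), and its strongest JunB (6.79) and Jun (10.9) peaks lay about another start 116440 and 116468 bp into the gene. WWTR1 had all 3 in both lines at an internal start, with summits 160262 to 160368 bp into the gene: JunB 10.5 and 7.69, Jun 20.6 and 23.9, JunD 4.95 and 7.14. The local background under the Jun-family peaks of B2B was above 4 times the lowest at CCN1, AMOTL2, AJUBA, TEAD1 and YAP1. Whether a high local background kept JunB or JunD peaks of B2B off its list was not tested.

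Within 100 kb of the 9 genes, the Jun-family peaks of both lines merged into 164 regions. Of these, 52 were shared (31.7%, Wilson 95% interval 25.1 to 39.2), 35 were found in A549 alone (21.3%, 15.8 to 28.2), and 77 in B2B alone (47%, 39.5 to 54.6). The intervals cover counting error only and take the regions as independent, though they cluster around 9 genes. Over the 55710 regions within 100 kb of any protein-coding gene, 27.2% were shared, 34.8% were in A549 alone and 38% in B2B alone. The regions were denser than around all genes, at 69.1 per Mb searched for the 9 genes against 29.3 per Mb for all genes. CCN1 had 130 per Mb and AMOTL2 105 per Mb, and LATS2 with 46.1 per Mb the fewest. Of the 77 regions in B2B alone, 61 held Jun and neither JunB nor JunD. The B2B list of Jun is far longer than those of JunB and JunD (45047 peaks against 8563 and 8597). The share of such regions over all genes was not counted. By protein, JunB counted 64 peaks in the A549 list and 33 in that of B2B, Jun 85 and 127, and JunD 22 and 24. The order of JunB depended on the length of the lists, since 22 and 33 peaks remained at equal length. The Jun list of B2B is the longer one (45047 peaks against 35602). At equal length Jun counted 85 peaks in A549 and 99 in B2B. With all lists of equal length, 39 regions lay in A549 alone and 57 in B2B alone, a smaller lead of B2B. The shares over all genes were not counted at equal length.

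The excess of B2B regions came mainly from CCN1, AMOTL2 and TEAD1. CCN1 had 5 regions in A549 alone and 16 in B2B alone, AMOTL2 3 and 13, and TEAD1 3 and 18. For these 3 genes B2B stayed ahead with lists of equal length, with differences (A549 minus B2B) of -7, -7 and -9. CCN2 had 3 and 5, ANKRD1 2 and 4, LATS2 1 and 5, and YAP1 4 and 7. AJUBA was the only gene with more regions in A549 alone, 7 against 1. WWTR1 had 7 and 8, and its difference of -1 turned to 5 with lists of equal length.

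**Figure D4:**
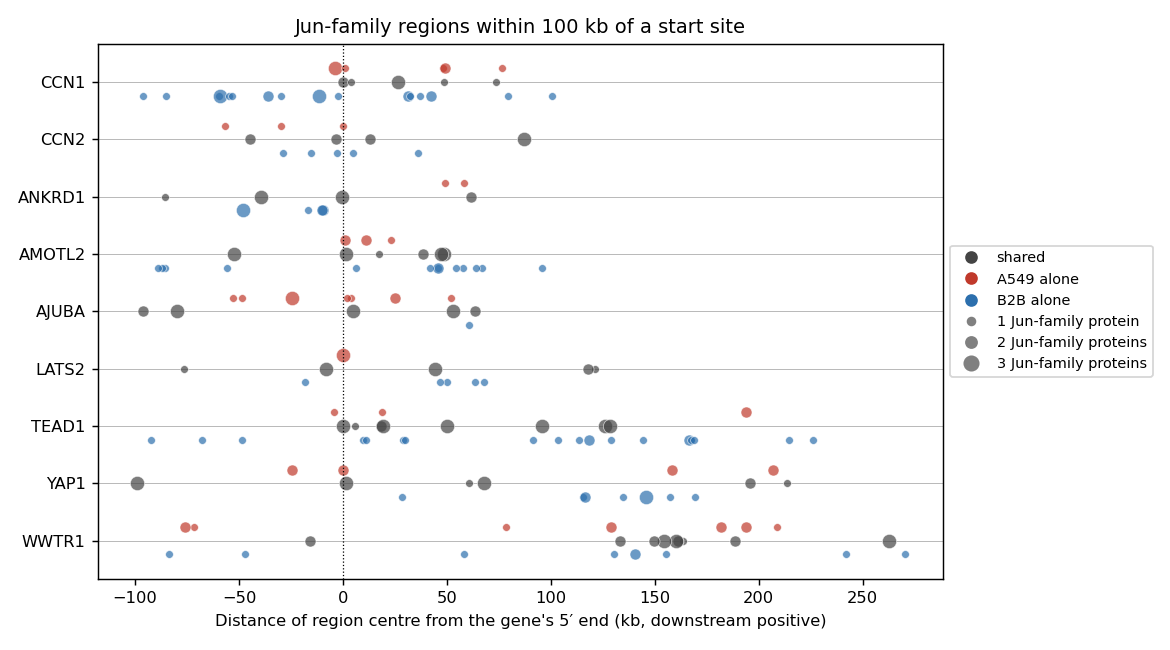
Jun-family regions within 100 kb of a start site of the 9 genes by the distance of their centre from the gene's annotated 5′ end (kb, downstream positive), coloured by the line or lines with a peak and sized by the larger number of Jun-family proteins in either line. A region near several genes is drawn at the nearest. The rows of CCN1 (16 in B2B alone), AMOTL2 (13) and TEAD1 (18) hold most of the blue points, and AJUBA has 1.

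The strongest shared region of CCN1 was the one printed above, 26.6 kb downstream of the gene start, where all 3 proteins peaked in both lines: JunB 26.9 in A549 and 13.6 in B2B, Jun 52.6 and 40.5, and JunD 10.2 and 8.74. It carried H3K27ac and Med1 in both lines, and CTCF and Rad21 in B2B. Upstream, in introns of DDAH1, the lines differed. A region 3.84 kb upstream held all 3 proteins in A549 alone (6.56, 9.46 and 4.58), and one 59.1 kb upstream held all 3 in B2B alone (JunB 10.2, Jun 25.6, JunD 7.42) together with B2B peaks of Med1 and H3K27ac. The CCN2 window with the joined motifs held Jun at 19.7 in A549 and 29.6 in B2B, JunB at 6.02 in A549 and JunD at 6.61 in B2B, with no H3K27ac or Med1 peak in either line.

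At ANKRD1, a region 48 kb upstream had all 3 proteins in B2B alone, with Jun at 52.0 and JunD at 12.1. The YAP1 window 99.2 kb upstream had all 3 in both lines at similar fold enrichments (JunB 15.8 and 17.2, Jun 39.3 and 40.1, JunD 6.59 and 7.33). A second YAP1 region, 67.9 kb into the gene in an intron, was stronger in A549 (JunB 18.6, Jun 56.6, JunD 18.6) than in B2B (Jun 24.9, JunD 8.54). A region past the end of YAP1, 146 kb from its 5′ end, held all 3 in B2B alone (7.08, 28.7 and 6.92). For AJUBA, a region 24.4 kb upstream in an exon of C14orf93 held all 3 in A549 alone (JunB pileup 58, Jun 38, JunD 25). In WWTR1 a region 155 kb into the gene had higher fold enrichments in A549 (21.9, 33.6 and 6.84) than in B2B (JunB 6.69 and Jun 9.69).

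At the 50 regions with a Jun peak in both lines, the Jun pileup over the lowest background was higher in B2B at 33, a share to be read beside 51.7% of the 16590 such regions of the genome. AMOTL2 had the higher value in B2B at 6 of 6 regions, with a median ratio of A549 to B2B of 0.422, and CCN1 at 3 of 3. WWTR1 had the higher value in A549 at 5 of 9, with a median ratio of 1.74 and a highest ratio of 5.59.

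The regions differed in the marks they shared. Among shared regions, H3K27ac lay at 22 of the 47 within reach in each line, and Med1 at 24 of 52 in A549 and 25 in B2B. Over all genes on the part of the genome that the lists cover, shared regions held H3K27ac in 26.6% (A549) and 23% (B2B) and Med1 in 24% and 23.6%. Of the 35 regions in A549 alone, 20 held Med1 in A549 (39.3% of such regions over all genes) and 16 in B2B (31%). Of the 77 regions in B2B alone, 16 held Med1 in B2B (9.09% over all genes) and 1 in A549 (0.83%). Of these 77, H3K27ac lay at 12 of 76 in B2B (8.83%) and 3 of 76 in A549 (2.14%). These regions were chosen for Jun-family peaks, not for marks.

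Motifs were counted at the summits of the Jun-family peaks near the 9 genes. Within 50 bp of the summit and on either strand, the AP-1 motif was found at 31.8% of 85 Jun peaks in A549 (Wilson 95% interval 22.8 to 42.3) and 35.4% of 127 in B2B (27.7 to 44.1), against 42.0% and 39.8% of all Jun peaks. The TEAD core was found at 16.5% of these peaks in both lines, against 11.3% and 18.4% of all Jun peaks. In windows 2 kb away from the same summits, the TEAD core was found at 7.06% and 5.51% and the AP-1 motif at 1.18% and 1.97%. For JunB the AP-1 motif share was 34.4% of 64 peaks in A549 and 51.5% of 33 in B2B, against 46.2% and 53.6% of all its peaks. For JunD it was 36.4% of 22 peaks in A549 against 34.2%, and 66.7% of 24 peaks in B2B (46.7 to 82.0) against 42.8%. The intervals of these shares cover counting error only. Both motifs overlap in some windows, as at CCN2, and a match is only a run of letters.

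Other genes of the pathway were examined in 3 lists. Of 14 Hippo kinases and upstream regulators, all had a H3K4me3 promoter peak in both lines. JunB lay at 6 in A549 and 2 in B2B, Jun at 9 and 8, and JunD at 4 and 2. These and the counts of the other lists are to be read beside the shares of all genes, where JunB lay at 31.1% in A549 and 5.28% in B2B, Jun at 38.2% and 25.4%, and JunD at 17.8% and 3.21%. The largest differences were at FAT1, an atypical cadherin, at PTPN14, a phosphatase that binds YAP, and at SAV1, the scaffold of the STK3 and STK4 kinases, each with 3 proteins in A549 and Jun alone in B2B. FAT1 had Jun at 51.1 in A549 and 4.55 in B2B. STK4, an upstream kinase, went the other way with 2 proteins in A549 and 3 in B2B. Of 7 genes of the TEAD family and its cofactors, TEAD4 and TEAD2 had JunB and Jun in A549 and no Jun-family peak in B2B, VGLL3 had 2 proteins and 1, and VGLL4 had all 3 in both lines. Of 16 other YAP and TAZ targets, JunB lay at 10 in A549 and 4 in B2B, Jun at 10 and 13, and JunD at 4 and 0. DOCK5 had all 3 in A549 (JunB 21.5, Jun 46.5, JunD 11.6) and none in B2B, AXL, a receptor tyrosine kinase, and F3, tissue factor, had 3 and 2, and RBMS3 had Jun in B2B alone (46.8).

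For Med1, the pileup over the lowest background was at least 2-fold higher in B2B at 1 of 10 Hippo genes (AMOTL1), 1 of 4 TEAD-family genes (TEAD3) and 3 of 13 other targets (ARHGEF17, F3 and RBMS3) with a peak in both lists. The median ratios of A549 to B2B were 0.915, 0.660 and 0.949, against 0.354 for the 9 genes.

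The genes whose strongest promoter peaks were most like those of CCN1 over the 16 lists, by the distance of log2(1 + fold enrichment) on chromosomes 1 to 12, were MATR3 (2.17), TRAM1 (2.29) and RPL12 (2.34), against a median distance of 8.87 over 12573 genes. For CCN2 they were ZBED6 (1.41), ZC3H11A (1.41) and FAM47E (1.76), against a median of 7.01.

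As a check of the labelled lines, promoter peaks of marker genes were counted. In both lines, 4 of 5 epithelial markers had polII and H3K4me3, and the 2 endothelial markers had neither. Of 3 basal airway markers, 1 (TP63) had polII in A549 and 0 in B2B, so that KRT5 and KRT14 had none in either line. Of 4 mesenchymal markers, 3 had polII in A549 and 4 in B2B, and neither of the 2 leukocyte markers had polII. Of 3 alveolar type II markers, 2 had polII in A549 and 1 in B2B.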

How the data were processed

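ChIP-seq peak lists of A549 and B2B were analysed. The methods state that the authors mapped reads to hg38 (Bowtie2 2.4.4), dropped duplicates by code of their own, merged replicates, scaled counts to CPM (samtools 1.13) and used MACS2 2.2.7.1 for peaks. The control and options of the caller are not given in the sources used here. The deposited score of a peak is 10 times its −log10 q, rounded down. The deposited fold enrichment is a ratio of pileup to local background, each with 1 added. The authors deposited −log10 of the p-value and of the q-value of each peak. The q-value was used only to filter. The p-value was used to cut lists to equal length and to solve for pileup and background. Input samples were not analysed here. One of the sequence windows is not reported here.

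The members and the gene lists were chosen with earlier results of these data known. Start sites came from GENCODE release 44, and overlaps of at least 1 bp counted. Fold enrichment and p-value (the Poisson tail above the pileup) were solved for pileup and background, and in each of the 16 lists 100% of the pileups came out within 0.05 of a whole number. The pileup was divided by the lowest background of its list to compare lines. For each gene the highest pileup near any of its start sites was used, so the site may differ between lines. On simulated peaks from 4 lists, the solver returned 100% of 1000 known pileups in each. Python 3.11.15, NumPy 2.4.6, SciPy 1.17.1, pysam 0.24.0, samtools 1.23.1, bedtools 2.31.1 and Matplotlib 3.10.9 were used. The lists held 8563 to 61225 peaks, and the read depth behind them is unknown. All 9 genes were described in full. Of each pathway list, up to 4 genes were named by the largest difference between lines in the number of Jun-family proteins, with ties broken by summed fold enrichment. For CCN1 and CCN2 the 3 nearest genes were named. The genes named for Med1 in the pathway lists, a second region of some members and the promoter sequences were chosen after their values were seen. Without replicate lists no test was run. Alternatives were a stricter q-value, other distances, the 5′ end only, lists of equal length, a stricter overlap and a wider motif window.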

Additional observations from a re-analysis of the deposited data

How the results depend on the processing

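Each list pools 2 replicates, so no replicate could be left out and no spread between replicates could be given. No paired analysis was possible because the lists are pooled over the replicate numbers. Of 164 values under alternatives, 147 stayed within 1.5 times the value reported (motif shares within their interval), and those on the pileups were chosen after seeing the data. With lists of equal length, JunB in A549 had 5 promoters of the 9 genes and 22 peaks within 100 kb, and the differences (A549 minus B2B) of regions were -7 for CCN1, -1 for ANKRD1, -9 for TEAD1 and, reversed, 5 for WWTR1. With −log10 q of at least 5 they were -1 for CCN2 and -2 for WWTR1. At the 5′ end only, JunB and JunD in B2B had 1 gene each. With a window of 200 kb, 64 regions were in A549 alone. With motifs within 100 bp, the TEAD core was at 21.9% (JunB) and 27.1% (Jun) of the A549 peaks and 39.4% and 25.2% of the B2B peaks. Undivided pileups put H3K4me3 higher in B2B at 5 genes and JunB at 0. The Med1 count of 8 genes with the higher pileup in B2B moved by less than 1.5 times under each of its alternatives. Of all genes with a Med1 peak in both lists, 53.7% had the higher value in A549. The part of the caller's control in the backgrounds of B2B was not tested.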
